A study of Drosophila melanogaster with 6 samples.

Results

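Proteasome subunit genes of the fruit fly were examined for peaks of m6A-CLIP in adult heads. The members are the 48 protein-coding genes of the RefSeq table whose symbol begins with Prosalpha, Prosbeta, Rpn or Rpt followed by a digit, out of 13922 protein-coding genes on the chromosomes of the peak lists. They were chosen by name and not by any measured value, though with earlier results of these data known. They divide into 32 canonical subunits and 16 paralogs, whose symbols carry an R or T after the number of the subunit they resemble.

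The study isolated poly(A) RNA from pools of about 800 heads of w1118cs flies of both sexes per biological replicate, kept on standard diet at 25 °C. In 3 libraries, RNA fragments were crosslinked with ultraviolet light to an antibody against N6-methyladenosine (m6A), a methyl mark on adenosine in mRNA, and recovered with it. The other 3 libraries are the input of the same 3 replicates. Each CLIP library and the input library with the same number share 1 deposited peak list, so the data are 3 lists, here called lists 1, 2 and 3. All 6 libraries carry the same genotype and diet, so no treatment is compared, the pooled heads give no value for a single fly, and the antibody is the only evidence of m6A here. The labels name neurons as the cell type, but whole heads were used.

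The lists held 14329, 7232 and 6645 peaks, and the lowest peak of each had 7, 25 and 7 CLIP reads per bin of 50 bp. Reads were not scaled to library size. All 3 eye genes looked up had a peak in each list, as did 2 of the 3 neuronal genes, the exception being elav with a peak in lists 1 and 2. None of the 4 testis genes and none of the 3 ovary genes had a peak in any list. Genes without a peak have no value in the lists, so they cannot be called free of m6A, and a peak needs enough RNA as well as binding by the antibody. In whole heads, fewer cells of a type and less RNA per cell cannot be told apart. Coordinates are those of the lists, on the build dm6.

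The proteasome is the protease complex that degrades proteins tagged with ubiquitin. Its barrel-shaped core stacks rings of alpha subunits, which form the gate, on rings of beta subunits, some of which cut the protein chain. A regulatory particle sits on the core: its base holds the ATPases that unfold substrates (the Rpt subunits), and its lid removes ubiquitin. The paralogs replace individual subunits, and many of them have been described in Drosophila as expressed mainly in the testis.

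Most canonical subunits had peaks in list 1, none had one in list 2, and few had one in list 3. Of the 32 canonical subunits, 29 (90.6%) had at least 1 peak in list 1, 0 in list 2 and 6 (18.8%) in list 3, the last near the 16.9% of all protein-coding genes. Of the 16 paralogs, 1 had a peak in list 1, 1 in list 2 and 2 in list 3. Over all 48 members this gave 30 genes (62.5%) in list 1, against 27.3% of all protein-coding genes. It gave 1 gene (2.08%) in list 2, against 17.6% of all protein-coding genes, and 8 genes (16.7%) in list 3, near the 16.9% of all protein-coding genes. A peak in any list was found in 34 members (70.8%), against 29.3% of all protein-coding genes. Gene and peak were matched by the midpoint of the peak, over the whole span with its introns.

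No member had a peak in all 3 lists, against 13.7% of all protein-coding genes. In at least 2 lists there were 5 members (10.4%), against 18.8%, and in list 1 with no other list 25 members (52.1%), against 8.97%. The 5 members in 2 lists were Prosalpha4, Prosbeta7, Rpt2, Rpn1 and Rpn2, each in lists 1 and 3. Of the members with any peak, 73.5% had it in list 1 only, against 30.7% of all genes with any peak. The members were not matched to other genes on expression or length, and no set test was run.

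**Figure D1:**
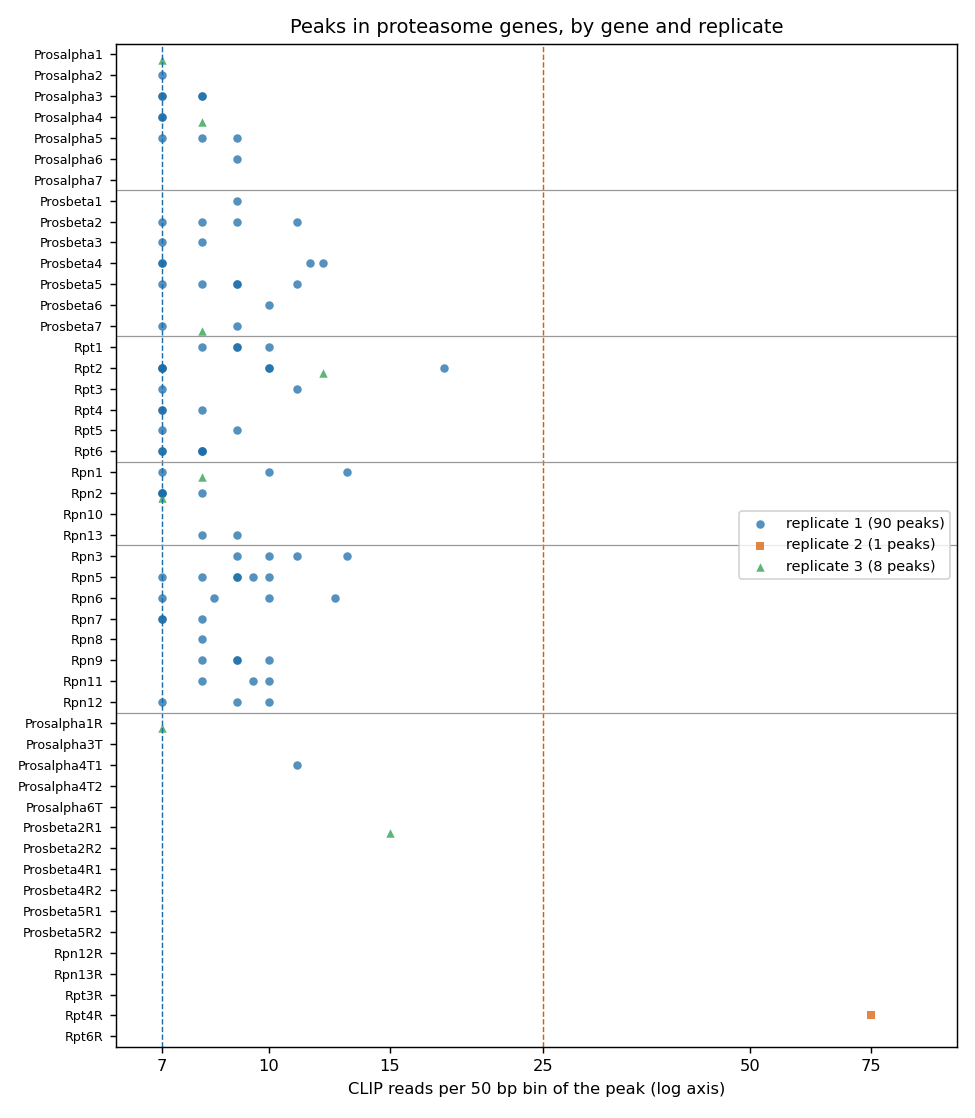
CLIP reads per 50 bp bin (log x axis) of each peak in each proteasome gene (y axis, grouped from top to bottom as alpha ring, beta ring, base ATPases, other base subunits, lid and paralogs), with the replicate shown by colour and shape. Dashed lines mark the lowest peak of list 1 (7 reads) and of list 2 (25 reads), and the 90 peaks of list 1 all lie between 7 and 18 reads.

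The peaks of list 1 were many, narrow and low. The 30 members with a peak in list 1 held 90 peaks there, from 1 to 6 per gene with a median of 3, against a median of 2 over the 1343 protein-coding genes of 800 to 4500 bp with a peak in list 1. Of the 90 peaks, 74 (82.2%) were 1 bin wide, against 60.9% of all peaks of that list. The member peaks had from 7 to 18 CLIP reads per bin, with a median of 8, against a range from 7 to 32824 and a median of 10 over all peaks of the list. At the lowest number, 7 reads, were 30 of the 90 (33.3%), against 19.9% of all peaks.

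Input reads of these bins were also low. They ran from 1 to 14 per bin, with a median of 6, in the member peaks, against a median of 8 over all peaks of list 1. The log2 ratio of CLIP to input reads, with 1 read added to each, ran from −0.91 to 2.58 in the member peaks, with a median of 0.51 and an SD over peaks of 0.70. Over all peaks of list 1 the same ratio had a median of 0.17 and an SD of 1.34. Ratios above 2 were found in 1 of the 90 member peaks (1.11%), against 10.3% of all peaks, and CLIP reads fell below input reads in 21 (23.3%), against 43.6%. Without scaling to library size, a ratio of 0 is no baseline. Peaks were called on CLIP reads, so the ratio was not tested, and with 3 pairs of libraries an exact two-sided sign-flip test could not go below p = 0.25.

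**Figure D2:**
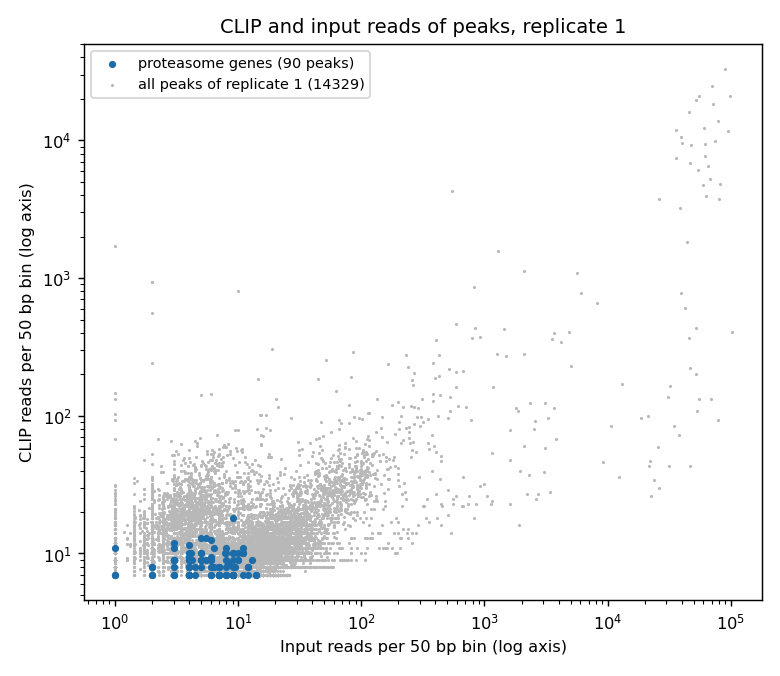
CLIP reads (y axis) against input reads (x axis) per 50 bp bin of each peak in replicate 1, both on log axes, with peaks in proteasome genes in blue over all peaks of the list in grey. The 90 proteasome peaks occupy the low corner, with 7 to 18 CLIP reads and 1 to 14 input reads.

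In the alpha ring, 5 of 7 subunits had a peak in list 1, with 11 peaks in all. Their CLIP reads were the lowest of the 5 groups of canonical subunits by the median, 7 reads per bin, and ran from 7 to 9. Prosalpha3 had 4 peaks with 7 to 8 CLIP reads and 4 to 7 input reads per bin, and peaks covered 24.6% of its span. Prosalpha5 had 3 peaks with 7 to 9 CLIP reads, while Prosalpha2 and Prosalpha6 had 1 peak each, with 7 and 9 CLIP reads. Prosalpha4 had 2 peaks of 7 CLIP reads in list 1, at X:16276401-16276450 and X:16277501-16277550 (plus strand). Its peak in list 3, with 8 CLIP reads and 1 input read, lay 200 bp from the nearer of them, so the position was not shared. Prosalpha7 had no peak in any list.

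Prosalpha1 differed from the other members of the ring in that its only peak was in list 3. It lay at 2R:7828251-7828300 (minus strand), with 7 CLIP reads and 2 input reads. Its duplicate Prosalpha1R also had a peak in list 3 only, at 2R:7831351-7831400 on the same strand, with 7 CLIP reads and 3 input reads. The peaks lie 3100 bp apart, and the spans of the genes are offset by 3110 bp at their starts and 3093 bp at their ends. Because the genes are duplicates of each other, reads may have been shared or lost between them, and the values of both are uncertain.

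In the beta ring, all 7 subunits had a peak in list 1, with 19 peaks, a median of 9 CLIP reads and a range from 7 to 12. Prosbeta5, which carries the chymotrypsin-like activity, had 5 peaks on the plus strand of 2R. Listed along the chromosome, starting at 10820151 and ending at 10821000, their CLIP reads were 9, 11, 8, 7 and 9 per bin, and their input reads 13, 11, 12, 14 and 8. Its peaks had a median log2 ratio of −0.49, and CLIP reads exceeded input reads only in the last of them. Prosbeta2, which carries the trypsin-like activity, had 4 peaks with 7 to 11 CLIP reads and a median log2 ratio of 0.27. Prosbeta1, which carries the caspase-like activity, had 1 peak, with 9 CLIP reads against 10 input reads.

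The remaining beta subunits do not cut. Prosbeta4 had the highest peak of the ring, 12 CLIP reads against 3 input reads at 2L:16731751-16731800 (minus strand), and its 4 peaks covered 26.2% of its span, the largest share of any member. Prosbeta3 had 2 peaks of 8 and 7 CLIP reads, and Prosbeta6 had 1 peak of 10. Prosbeta7 had peaks of 7 and 9 CLIP reads in list 1. Its peak in list 3, at 3R:5357201-5357250 (minus strand) with 8 CLIP reads against 16 input reads, lay 100 bp from the nearer of these.

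All 6 ATPases of the base had a peak in list 1, with 22 peaks, a median of 8 CLIP reads and a range from 7 to 18. Rpt2 had 6 peaks, among them the highest of any member in list 1, at 3R:23930101-23930150 (minus strand). That bin had 18 CLIP reads against 9 input reads in replicate 1 and 12 against 12 in replicate 3. The bin was thus in both lists, with log2 ratios of 0.93 and 0.00. Rpt4 had 3 peaks with 7, 7 and 8 CLIP reads against 4, 1 and 3 input reads.

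Rpt1 and Rpt6 overlap spans of other genes. The 4 peaks of Rpt1, with 8 to 10 CLIP reads, also lay in the span of CG17985, and 4 of the 5 peaks of Rpt6, with 7 or 8 CLIP reads, also lay in that of CG1801. Neither CG17985 nor CG1801 had a peak outside these. The fifth peak of Rpt6, at X:21317601-21317650 (plus strand), lay in its span alone, with 8 CLIP reads against 4 input reads. Rpt3 and Rpt5 had 2 peaks each, with 7 to 11 and 7 to 9 CLIP reads. In all, 11 of the 90 member peaks of list 1 also lay in another protein-coding span, the remaining 3 in Reck (with Prosbeta2), CG31142 (with Rpt2) and CG42322 (with Prosalpha4T1). Without these 11 peaks, 28 members had a peak in list 1.

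Of the base subunits that are not ATPases, Rpn1, Rpn2 and Rpn13 had a peak in list 1 and Rpn10 had none in any list. Rpn10 and Rpn13 are receptors for ubiquitin, and Rpn1 and Rpn2 are the large scaffolds of the base. Rpn1 had 3 peaks in list 1, and the highest, at 3L:19917251-19917300 (plus strand), was called again in list 3. It had 13 CLIP reads against 5 input reads in replicate 1 and 8 against 7 in replicate 3, with log2 ratios of 1.22 and 0.17. Rpn2 had 4 peaks with 7 or 8 CLIP reads in list 1 and a peak of 7 reads in list 3, which lay 150 bp from the nearest of them. Rpn13 had 2 peaks with 8 and 9 CLIP reads, against 4 and 6 input reads.

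Each of the 8 Rpn genes of the lid had a peak in list 1 and none had a peak in another list. The shares over all protein-coding genes were 27.3% in list 1, 17.6% in list 2 and 16.9% in list 3. Peaks in list 1 only were not particular to the lid, as 6 of 7 beta subunits and 5 of 6 ATPases of the base also had them. The lid genes held 28 peaks, with a median of 9 CLIP reads and a range from 7 to 13, and 7 of the 8 genes had at least 3 peaks. Rpn3 had 4 peaks on the plus strand of 2L. Listed along the chromosome, starting at 19052001 and ending at 19053600, their CLIP reads were 10, 9, 13 and 11 per bin, and their input reads 4, 3, 5.48 and 1. The last had a log2 ratio of 2.58, the highest of any member in list 1, and it rests on 1 input read. Its median ratio over the 4 peaks, 1.23, was the highest of any canonical subunit.

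Rpn11, the metalloprotease that cuts ubiquitin from the substrate, had 3 peaks on the minus strand of 2L, whose CLIP reads were 10, 9.5 and 8 per bin and whose input reads were 4.16, 6 and 7. The first, at 2L:5058451-5058650, was the widest of any member at 200 bp. Rpn8, the partner of Rpn11 in the lid, had the longest span of all members, 4500 bp, and 1 peak, with 8 CLIP reads against 8 input reads. Rpn5 had 6 peaks with 7 to 10 CLIP reads and Rpn6 had 4 with 7 to 12.5. Rpn9 had 4 peaks with 8 to 10 CLIP reads, while Rpn7 and Rpn12 had 3 each, with 7 to 8 and 7 to 10. These 5 genes and Rpn3 are structural subunits of the lid.

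Peaks of the regulatory particle (59 peaks) and of the core (30 peaks) had the same median of 8 CLIP reads per bin. Median input reads were 6 in the regulatory particle and 7.5 in the core, and median log2 ratios were 0.58 and 0.00, with SDs over peaks of 0.67 and 0.69. Both come from 1 pair of libraries and the peaks of a gene share their RNA, so this difference was not tested.

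The 16 paralogs had 4 peaks in all, each in a different gene. Rpt4R had the only member peak of list 2, at 3L:11942701-11942750 (plus strand). It had 75 CLIP reads against 4 input reads, a log2 ratio of 3.93, and list 2 had a median ratio of 1.58. In the authors' deposited table its p-value was 4.91e-08, and 9.05% of the peaks of list 2 ranked as low or lower. Prosbeta2R1 had a peak in list 3 at X:5809301-5809350 (plus strand), with 15 CLIP reads against 3 input reads, the most CLIP reads of the 8 member peaks of that list. Neither gene had a peak in another list.

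Prosalpha4T1 had a peak of 11 CLIP reads against 3 input reads in list 1, at 3R:20748751-20748800 (minus strand). It also lay in the span of CG42322, which had 9 further peaks on both strands, so it cannot be given to Prosalpha4T1 alone. The peak of the fourth gene, Prosalpha1R, is described above with Prosalpha1. The other 12 paralogs had no peak: Prosalpha3T, Prosalpha4T2, Prosalpha6T, Prosbeta2R2, Prosbeta4R1, Prosbeta4R2, Prosbeta5R1, Prosbeta5R2, Rpn12R, Rpn13R, Rpt3R and Rpt6R. Spans of the paralogs had a median of 1282 bp, and spans of the canonical subunits a median of 1390 bp.

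None of the 24 members with at least 2 peaks over the lists had peaks on both strands, against 4.22% of 948 protein-coding genes of the same length range with as many. The RefSeq table gives no strand, so positions were measured from the 5′ end as the strand of the peaks gives it. In list 1 the median member peak lay at 64.7% of the span. The comparison peaks, each in exactly 1 protein-coding span of the same length range, had a median of 59.3%. The 90 member peaks include 11 that also lay in another span. In the last 10% of the span lay 15 of the 90 member peaks (16.7%), against 13.2% of the comparison peaks. In the first 10% lay 6 (6.67%), against 11.2%. Exons and introns were not used here, and the difference in position was not tested.

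**Figure D3:**
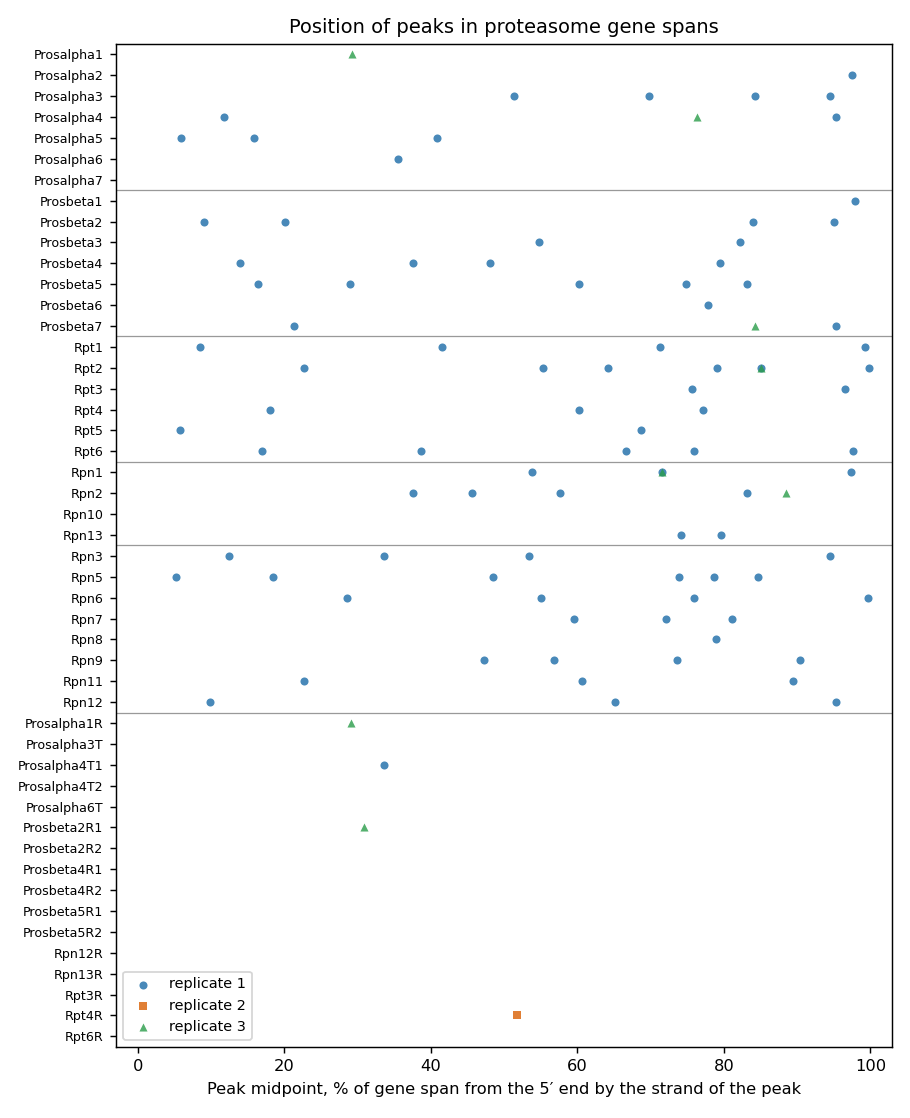
Position of each peak midpoint in its proteasome gene (y axis, grouped as alpha ring, beta ring, base ATPases, other base subunits, lid and paralogs), in percent of the gene span from the 5′ end by the strand of the peak (x axis), with the replicate shown by colour and shape. Peaks of list 1 spread over the spans, with 15 of 90 in the last 10%.

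The same positions were seldom called again. Of the 90 member peaks of list 1, 0 overlapped a peak of list 2 on the same strand by at least 1 bp. This allows a share of up to 3.33% (upper Wilson limit 4.09%). For each count of 0, the share allowed is 3 divided by the number of peaks. A peak of list 3 was overlapped by 2 of the 90 (2.22%, 95% Wilson interval 0.612 to 7.74). Over the 12002 peaks of list 1 in protein-coding spans with 7 to 18 CLIP reads, the range of the member peaks, 23.3% overlapped list 2 and 18.7% overlapped list 3. Overlap followed CLIP reads: of those with 7 to under 8 reads in replicate 1, 3.36% overlapped list 2, and of those with 11 to 18 reads, 52.4%. Reads within the range were not matched. Of the 90 member peaks, 30 had 7 to under 8 reads and 11 had 11 to 18. Of the 12002 peaks, 3035 and 3739 did. Of the 30 member peaks with 9 to under 11 reads, 0 overlapped list 2 and 0 overlapped list 3. This allows up to 10% for each (upper Wilson limit 11.4%). Of all peaks in protein-coding spans with as many reads, 19.0% and 14.1% did. Of the 11 member peaks with 11 to 18 reads, 0 overlapped list 2, which allows up to 27.3% (upper Wilson limit 25.9%). With list 3, 2 of these 11 (18.2%, interval 5.14 to 47.7) overlapped, against 42.7% of all peaks with as many reads. The intervals cover counting error only, and peaks of a gene are not independent.

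**Figure D4:**
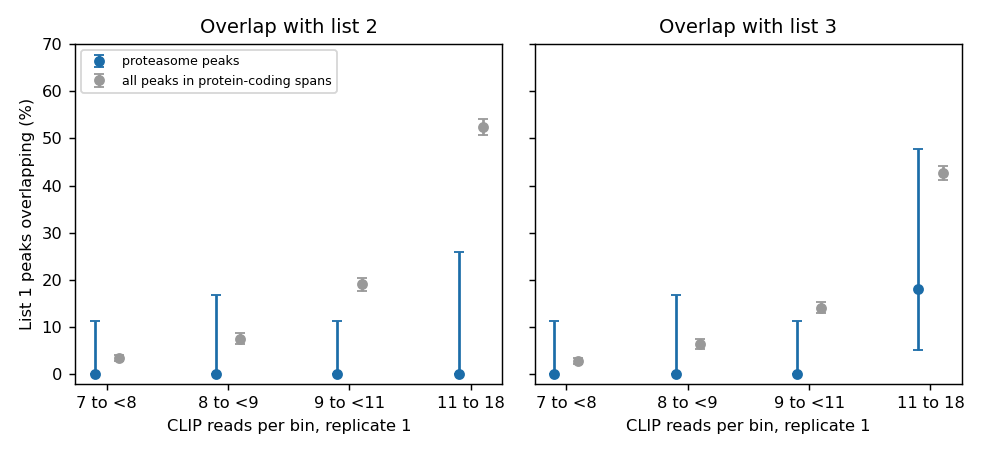
Share of list 1 peaks that overlapped a peak of list 2 (left panel) or list 3 (right panel) on the same strand (y axis, percent), by CLIP reads per bin in replicate 1 (x axis), for proteasome peaks in blue and all peaks in protein-coding spans, proteasome peaks included, in grey. Bars are 95% Wilson intervals. The only proteasome peaks that overlapped are 2 of the 11 with 11 to 18 reads, with list 3.

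The read levels of the lists differ. At the 104 intervals that all 3 lists give with identical ends, and that have at least 50 CLIP reads in replicate 1, replicate 2 had a median of 1.91 times and replicate 3 a median of 0.413 times the CLIP reads of replicate 1. Without that minimum, at 644 intervals, the medians were 2.20 and 0.519 times. Each interval had to be called in all 3 lists, and so to reach the lowest CLIP reads of each. The effect of this selection on the medians was not tested. The minimum of 50 reads lies above every member peak of list 1. The lowest peak of list 2 had 25 CLIP reads per bin and that of list 3 had 7, beside a median of 8 and a maximum of 18 for the member peaks of list 1. The part of these read minimums in the absence of the members from lists 2 and 3 was not tested. When list 1 was limited to its 6645 peaks with the most CLIP reads, the length of list 3, 11 members kept a peak in it (22.9%). This compares with 19.1% of all protein-coding genes, and with 10 of the 32 canonical subunits (31.25%). That cut fell among peaks of 10 CLIP reads per bin, where ties were broken by chromosome and position, so the counts depend on that order. With at least 11 CLIP reads per bin, 9 members had a peak in list 1. When list 1 was limited to the 6645 peaks with the lowest deposited p-values, 21 members (43.8%) had a peak in it, against 21.0% of all protein-coding genes. Of the canonical subunits, 20 (62.5%) had one. Among all genes whose list 1 peaks had at most 18 CLIP reads per bin, 1224 of 2562 (47.8%) had peaks in list 1 only, and among the members with a peak in list 1 it was 25 of 30 (83.3%). CLIP reads below that maximum were not matched between these genes and the members, and the difference was not tested.

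Other large complexes of housekeeping genes showed different list patterns. Of 84 nuclear genes of the respiratory chain, 46 (54.8%) had a peak in all 3 lists and 7 (8.33%) in list 1 only. Of 92 cytosolic ribosomal protein genes, 81 (88.0%) had a peak in all 3 lists and 0 in list 1 only. Median spans were 1097 bp in the respiratory chain and 1315 bp in the ribosome, near the 1390 bp of the canonical proteasome subunits. Paralogs were split off from the proteasome subunits but not from the genes of the respiratory chain and the ribosome. These lists were drawn up by symbol after the proteasome values were seen, and expression was not matched, so the difference from the proteasome was not tested.

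**Figure D5:**
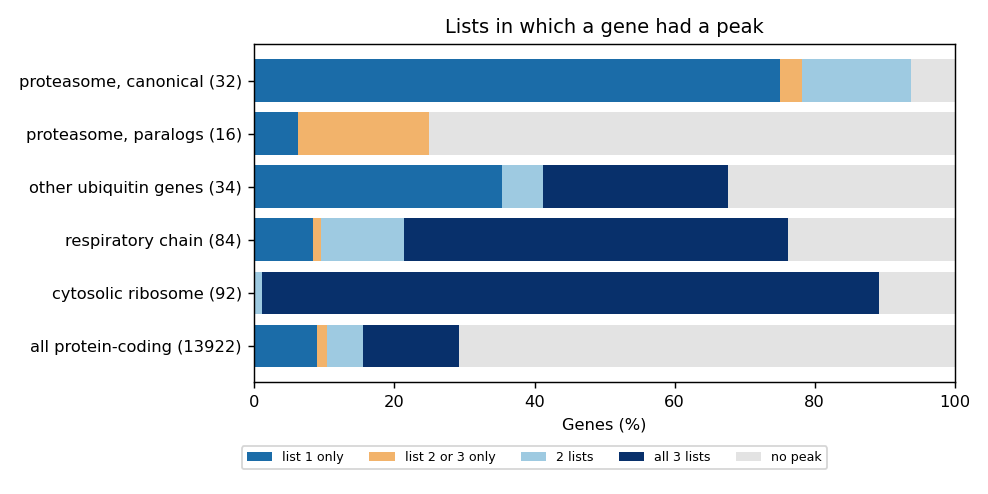
Percent of genes (x axis) with a peak in list 1 only, in list 2 or 3 only, in 2 lists, in all 3 lists or in none, for each gene group (y axis, number of genes in parentheses). The canonical proteasome subunits have no gene in all 3 lists and 24 of 32 in list 1 only, while the cytosolic ribosomal protein genes have 81 of 92 in all 3 lists.

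Genes that act with the proteasome were more mixed. Of 34 other genes of the ubiquitin pathway, 23 (67.6%) had a peak in list 1, 9 (26.5%) in list 2 and 11 (32.4%) in list 3. The shares over all protein-coding genes were 27.3%, 17.6% and 16.9%. Spans of the pathway genes had a median of 2751 bp, against 1390 bp in the canonical subunits, and lengths were not matched. In all 3 lists there were 9 (26.5%), against 13.7% of all protein-coding genes. These 9 were the ubiquitin genes Ubi-p5E, Ubi-p63E, RpL40 and RpS27A, the ubiquitin-conjugating enzymes ben and eff, the TER94 cofactor Npl4, the F-box gene ntc, and cnc, a transcription factor gene related to mammalian Nrf genes. With peaks in their own span alone it was 7 (20.6%), against 11.7% of all protein-coding genes. RpL40 and RpS27A were also counted among the 92 cytosolic ribosomal protein genes above. The highest peak of the 9 in replicate 1 ran from 14 CLIP reads per bin in Npl4 to 49.8 in eff. Their log2 ratios differed. The highest ratio in lists 1, 2 and 3 was −0.40, −0.43 and −2.34 in Ubi-p5E, and −1.71, −0.14 and −2.07 in RpL40. In Ubi-p63E it was −0.85, 0.43 and −2.05. In list 1 the others of the 9 ran from 0.09 in RpS27A to 3.39 in ntc. Medians over all peaks of the 3 lists were 0.17, 1.58 and −0.42. Another 12 genes (35.3%) had peaks in list 1 only, against 8.97% of all protein-coding genes. The highest peaks of these 12 had 7 to 13 CLIP reads per bin except in Cul3. Cul3, a scaffold of ubiquitin ligases, had 2 peaks in list 1, the higher with 810 CLIP reads per bin and a log2 ratio of 6.20. Among the others, TER94, the ATPase that extracts ubiquitin-tagged proteins, had 14 peaks with at most 13 CLIP reads, and Uba1, the ubiquitin-activating enzyme, had 5 with at most 8. Pomp, a chaperone of core assembly, had 2 peaks with at most 13 CLIP reads. SkpA and Sem1 had peaks in lists 1 and 3. Sem1 encodes a small subunit of the lid that the naming rule does not include, and its highest peak had 10.5 CLIP reads per bin in replicate 1 and 23 in replicate 3.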

How the data were processed

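Per the labels, poly(A) RNA from about 800 heads was fragmented, bound by the antibody for 2 h, crosslinked, and sequenced as 151 bp pairs. The submitters' processing notes name STAR 2.7.5a and the builds dm6 and BDGP6. The peak caller is not given in the sources used here. The deposited signal of a peak was read as the mean CLIP reads per 50 bp bin, from its values. Input reads per bin were recovered from a deposited natural log, and whether 1 read was added before that log is not given in the sources used here. That these are input reads was inferred from the labels. The p-value of each peak is as the authors deposited it. Neither kind of read is scaled to library size, and library totals were not used here. In wider peaks the input is a geometric mean, which raises the ratio.

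Coordinates are 1-based. Gene spans came from RefSeq Release 6. To check the build, peaks were matched to protein-coding spans: 91.0% to 97.3% per list lay within, against 79.5% to 86.8% after a move of 500 bp. No genome sequence was used here. Assignment was tested on simulated peaks (python 3.11.15, pandas 2.3.3). Of 35 pathway names, 34 matched a RefSeq gene by symbol or unique synonym, and CHIP was dropped as a synonym of STUB1, listed already, and of Chi. Members and lists were chosen with earlier results of these data known. The rule for named genes was to account for every member, to name those without a peak, genes whose spans also hold a member peak, and pathway genes in all 3 lists, and to give positions for regions shared by the 3 lists. No member had such a region, and the positions and other pathway genes printed were chosen after their values were seen. Counts rest on no test. The labels call the replicates biological and say no more of their source.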

Additional observations from a re-analysis of the deposited data

How the results depend on the processing

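Of 56 recomputed values, 47 stayed within 1 SD over lists or 1.5 times the count, and 9 moved further. Some of the 47 could not move: the count of members in list 1 is the same when replicate 2 or 3 is left out. The SD allowed for the log2 ratio, 1.80, includes the 1 peak of list 2, and every alternative of that ratio fell within it. The tally is therefore no measure of how stable the results are. No member had a peak in all 3 lists, a count that alternatives which only remove peaks cannot raise. It was also 0 with any overlap of 1 bp with the span and with peaks within 50 bp merged. With 2 lists required there were 5, and leaving out each replicate gave 0 to 5, the 5 being without replicate 2. Members with a peak in list 1 (30) and in list 1 only (25) were 11 and 9 with equal list lengths by CLIP reads, an alternative added after the values were known. Its cut in list 1 fell among peaks of 10 CLIP reads per bin, with ties broken by chromosome and position. The count in list 1 only was 25 to 30 with a replicate left out, the 30 being without replicate 3. Member peaks per list had a mean of 33 ± 49.5 (SD, n = 3), which rests on the 90 of list 1. The mean was 13.7 with the 50% of peaks with the lowest p-values, 15 with equal lengths by p-value, 8 with equal lengths by CLIP reads, and 4.5 to 49 when each replicate was left out (4.5 without replicate 1). Fewer peaks lower it by construction. The mean over lists of the median log2 ratio was 1.88 ± 1.80 (SD, n = 3), but list 2 holds 1 peak. It was 0.86 to 2.57 when each replicate was left out, the lowest without replicate 2. The mean position from the lower coordinate was 55.9% of the span, 41.2% with the lowest p-values, and 48.4% to 61.3% with a replicate left out. The cause was not tested. Counting by gene strand was not run because no table used here gives it. No paired analysis was possible because no result comes from a test, though each log2 ratio is taken within a pair of libraries. The lists hold no reads outside peaks, and member peaks lie near the read minimum of list 1.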
